A study of Mus musculus with 8 samples.

Results

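Hippo signalling was followed here through 10 genes in mouse germ cells and in cell cultures related to them. The genes are the LATS kinase genes Lats1 and Lats2, the MST kinase genes Stk3 and Stk4, the scaffold gene Sav1, the coactivator genes Yap1 and Wwtr1, and the TEAD transcription factor genes Tead1, Tead2 and Tead4. They were taken by symbol from the 20153 gene identifiers of the deposited table, no symbol was repeated, and all 10 passed the filter on low values with 11083 genes in all. The set was chosen by measured values: Lats2 was selected on its lower FPKM in iPGCs than in PGCs, so its values against PGCs or iPGCs are a description with no test, and the other 9 genes were chosen as its partners. Lats2 RNA lay at 3.19 to 4.45% of its PGC mean in EGCs, PGCLCs and iPGCs, and the choice bears on all of these values through the PGC libraries. Of the 9 genes that could be tested, 0 passed the limma threshold in any comparison with PGCs.

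RNA was sequenced from 8 libraries in 4 groups of 2. Embryonic germ cell (EGC) libraries came from lines 4 and 7 at passage 6, pluripotent lines of the Oct4gfpXCD1 strain derived from sorted E9.5 PGCs and grown in serum with LIF on mouse embryonic fibroblasts (about 500 cells a library). PGC-like cells (PGCLCs, 300 to 500 cells) had been induced in aggregates after an epiblast-like step, starting from the BVSC line of embryonic stem cells (passage 21). The iPGCs (1500 cells) were differentiated in hanging drops from the same line at the same passage. Endogenous primordial germ cells (PGCs), the founders of eggs and sperm, came at passage 0 from E9.5 embryos of the Oct4gfpXCD1 strain, with about 250 cells a library. Strain, passage and origin change together between PGCs and both stem cell derived groups, so they cannot be told apart. The design calls the 2 libraries of a group biological replicates, and the EGC libraries are different lines. No treatment is listed beyond these culture and induction conditions, which also differ between the groups.

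As background, the Hippo pathway is a kinase chain that restrains growth. MST kinases, held by the scaffold SAV1, activate LATS kinases, and LATS kinases phosphorylate the coactivators YAP and TAZ, which are then kept out of the nucleus or degraded. Unphosphorylated YAP and TAZ enter the nucleus and work through TEAD factors, which bind the motif GGAATG. In the early mouse embryo the pathway is known for separating trophectoderm, where YAP acts with TEAD4, from the inner cell mass. LATS2 is also known as a YAP target in a negative feedback loop.

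Because LATS2 is both a regulator and a reported target of YAP and TEAD, the promoter windows of the LATS pair and of Yap1 are shown. Each runs from 250 bases before to 50 bases after a RefSeq transcription start on GRCm38.p6, 5′ to 3′ on the gene's strand, and capitals mark the TEAD motif GGAATG, searched on both strands. The Lats2 window lies at chr14:57746074-57746373 (minus strand), that of Lats1 at chr10:7680959-7681258 (plus strand) and that of Yap1 at chr9:8004547-8004846 (minus strand).
Lats2: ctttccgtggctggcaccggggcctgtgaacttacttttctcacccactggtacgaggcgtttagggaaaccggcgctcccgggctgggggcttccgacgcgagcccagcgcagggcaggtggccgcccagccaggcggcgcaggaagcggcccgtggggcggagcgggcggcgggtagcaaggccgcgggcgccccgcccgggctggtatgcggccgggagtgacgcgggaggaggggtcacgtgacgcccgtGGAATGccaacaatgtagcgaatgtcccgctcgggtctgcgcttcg
Lats1: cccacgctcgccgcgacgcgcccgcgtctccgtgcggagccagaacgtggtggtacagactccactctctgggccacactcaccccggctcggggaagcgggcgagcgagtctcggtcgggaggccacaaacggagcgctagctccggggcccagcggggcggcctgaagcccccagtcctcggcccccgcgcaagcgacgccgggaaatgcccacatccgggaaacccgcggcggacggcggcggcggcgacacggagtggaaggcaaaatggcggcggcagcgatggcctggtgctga
Yap1: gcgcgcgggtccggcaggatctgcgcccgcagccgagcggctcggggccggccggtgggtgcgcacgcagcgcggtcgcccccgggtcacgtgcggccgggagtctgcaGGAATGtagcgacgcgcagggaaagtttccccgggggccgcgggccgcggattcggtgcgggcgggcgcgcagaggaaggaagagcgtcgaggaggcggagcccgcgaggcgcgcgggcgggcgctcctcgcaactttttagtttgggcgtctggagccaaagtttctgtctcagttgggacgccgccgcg
The motif begins 5 bases into the Lats2 transcript (the first transcribed base counted as 1), and at position -141 in the Yap1 window. Lats1 has no match in its window, and neither has the window of another Lats2 start (chr14:57734369-57734668). Of the 7 members with an entry, Wwtr1 (positions -136 and -170 from its 2 starts, the same match) and Sav1 (position -106, as CATTCC, the motif on the other strand) also hold it, while Tead2 and Stk4 do not. The motif is found in 14.7% of 32851 promoter windows of the same length, and a match is a description of letters, not of binding. Tead1, Tead4 and Stk3 had no entry.

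The LATS kinases come first, since the set turns on Lats2. Lats2 (chromosome 14, 57689662 to 57758388, minus strand, GRCm38) had 0.956 and 1.27 FPKM in EGC lines 4 and 7, 0.242 and 1.36 FPKM in PGCLCs, 1.39 and 0.637 FPKM in iPGCs, and 29.2 and 20.8 FPKM in PGCs. FPKM is a read level corrected for transcript length and for the depth of the library. Both PGC libraries lay far above the other 6, and the EGC, PGCLC and iPGC libraries overlapped each other. The means were 1.11 ± 0.225 FPKM in EGCs, 0.799 ± 0.789 FPKM in PGCLCs, 1.01 ± 0.531 FPKM in iPGCs and 25.0 ± 5.97 FPKM in PGCs (SD, n = 2 each). The mean was thus 4.45% of the PGC mean in EGCs, 3.19% in PGCLCs and 4.04% in iPGCs. With bulk RNA, fewer cells of a type and less RNA per cell cannot be told apart.

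On the log2(FPKM + 1) scale, and minus the median difference of all tested genes, Lats2 differed from PGCs by -3.67 in EGCs, -4.34 in PGCLCs and -4.17 in iPGCs (SE 0.62 each, n = 2 against 2, no test). The median of all tested genes itself lay 0.07, 0.44 and 0.47 above PGCs in EGCs, PGCLCs and iPGCs, and every log2 difference below is given relative to it, whereas p-values test the unshifted difference. These 3 comparisons share the PGC libraries. Leaving out PGC library 1 gave -3.43, -4.10 and -3.94 for EGCs, PGCLCs and iPGCs, and leaving out PGC library 2 gave -4.01, -4.67 and -4.50. The choice of Lats2 fixes the sign of the iPGC values, and the EGC and PGCLC values rest on the same PGC libraries. Between the groups that the choice of Lats2 did not use, EGCs and PGCLCs, the difference was 0.69 (95% interval -0.72 to 2.10; limma adjusted p = 0.857), which does not show that their levels are equal.

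Ranked among the 11083 tested genes of its own library, Lats2 stood at percentiles 22.7 and 20.8 in EGCs, 11.4 and 18.1 in PGCLCs, 17.3 and 7.27 in iPGCs, and 87.8 and 80.9 in PGCs. It therefore ranked well below the middle of tested genes in each cultured library and well above it in each PGC library. The approximate reads behind the values were 69.9 and 114 in EGCs, 10.1 and 115 in PGCLCs, 21.2 and 54.9 in iPGCs, and 2795 and 1569 in PGCs. The lowest value, in PGCLC library 1, thus rests on few reads. In GENCODE, Lats2 shares 2955 exon bases with Gm49361 on the same strand. That gene was not analysed here, and reads of the shared bases cannot be told apart.

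Lats1 encodes the paralogous kinase, which phosphorylates the same substrates. Lats1 (chromosome 10, 7681214 to 7716460, plus strand) had 2.46 and 2.53 FPKM in EGCs, 2.58 and 4.81 FPKM in PGCLCs, 3.69 and 2.80 FPKM in iPGCs, and 3.28 and 2.08 FPKM in PGCs. Its highest library was 2.31 times its lowest, against 121 times for Lats2, and the EGC, PGCLC and iPGC libraries each overlapped the PGC libraries. The difference from PGCs was -0.12 in EGCs (95% interval -1.46 to 1.22; limma adjusted p = 0.982), -0.11 in PGCLCs (-1.45 to 1.24; 0.800) and -0.25 in iPGCs (-1.59 to 1.09; 0.870). These intervals leave room for a change of more than 1 log2 unit either way, and without PGC library 1 the sign turned in EGCs (0.12) and PGCLCs (0.14).

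Because both are given per length, the pair can be set against each other. Lats2 made up 28 and 33.4% of the summed Lats1 and Lats2 FPKM in EGCs, 8.56 and 22% in PGCLCs, 27.3 and 18.5% in iPGCs, and 89.9 and 90.9% in PGCs. Lats2 was thus the larger of the pair in both PGC libraries and Lats1 in each of the other 6. The choice of Lats2 used the PGC and iPGC libraries and so bears on this contrast, which was not tested.

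**Figure D1:**
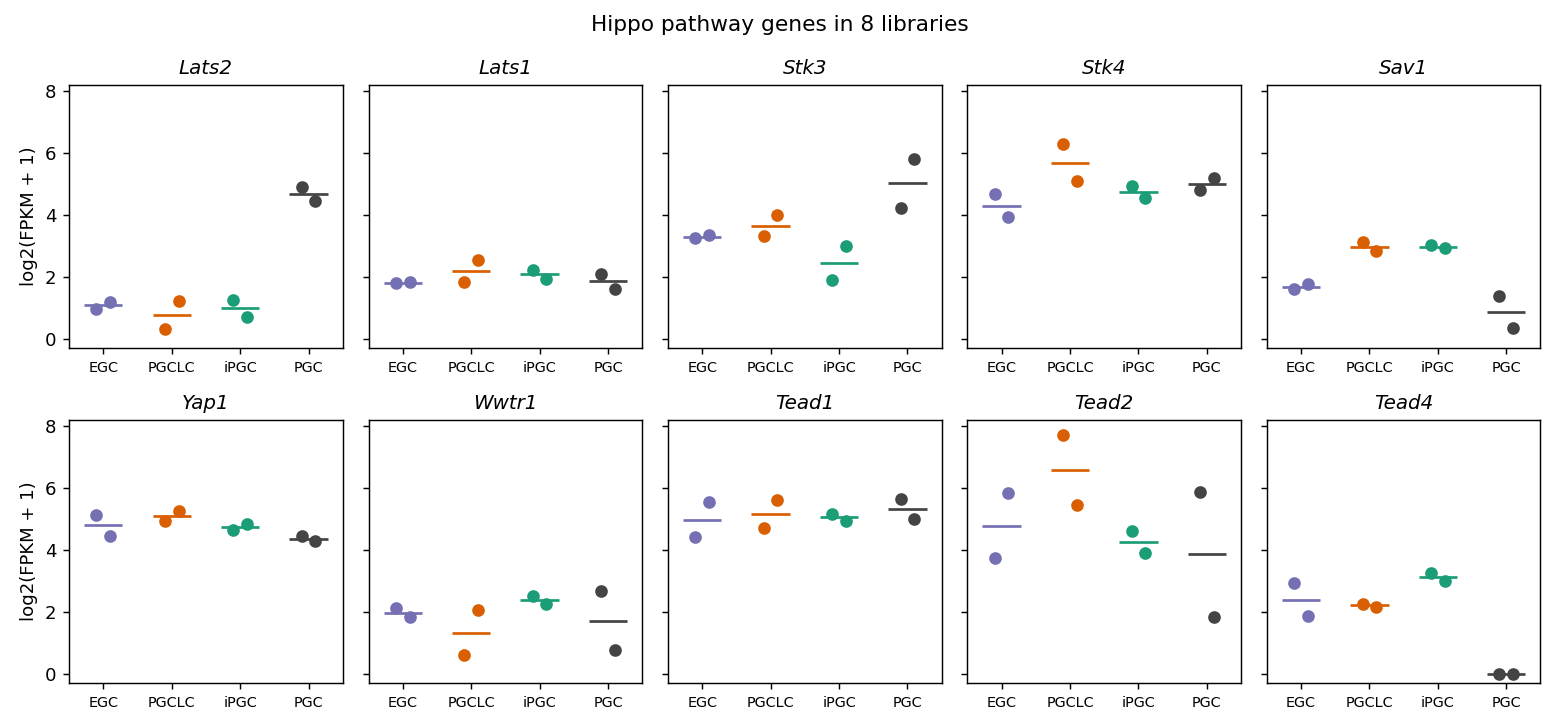
Each panel shows 1 gene of the set as log2(FPKM + 1) in each of the 8 libraries (points), with the group mean as a line, for EGCs, PGCLCs, iPGCs and PGCs. Lats2 is at 1.39 FPKM or less in the 6 EGC, PGCLC and iPGC libraries and at 29.2 and 20.8 FPKM in PGCs, while Lats1 stays between 2.08 and 4.81 FPKM and Tead4 is listed at 0 in both PGC libraries.

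Upstream of LATS, the MST kinases are encoded by Stk3 (MST2) and Stk4 (MST1). Stk3 (chromosome 15, 34875496 to 35178921, minus strand) had 8.57 and 9.15 FPKM in EGCs, 9.03 and 14.9 FPKM in PGCLCs, 2.69 and 7.02 FPKM in iPGCs, and 17.7 and 55.1 FPKM in PGCs. Both PGC libraries lay above the other 6, but they differed from each other by more than the EGC libraries or the PGCLC libraries did among themselves. The difference from PGCs was -1.78 in EGCs (limma adjusted p = 0.256), -1.79 in PGCLCs (0.328) and -3.04 in iPGCs (0.112), with SE 0.69, and none passed. Without PGC library 2, the highest, these differences were -1.09, -1.09 and -2.35.

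Stk4 (chromosome 2, 164070322 to 164155524, plus strand) had 24.7 and 14.2 FPKM in EGCs, 76.5 and 33.3 FPKM in PGCLCs, 29.6 and 22.6 FPKM in iPGCs, and 27.0 and 35.9 FPKM in PGCs. PGCLC library 1 stood highest, and the EGC libraries lay below both PGCLC and both PGC libraries. EGCs differed from PGCLCs by -0.999 ± 0.541 (limma adjusted p = 0.322), which ran from -0.47 without PGCLC library 1 to -1.54 without PGCLC library 2, and was -0.53 without EGC line 7. Stk3 made up 25.7 and 39.2% of the summed Stk3 and Stk4 FPKM in EGCs, 10.6 and 30.9% in PGCLCs, 8.32 and 23.7% in iPGCs, and 39.6 and 60.5% in PGCs. The PGC shares were the highest 2 of the 8, and PGC library 1 exceeded EGC line 7 by a small margin.

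Sav1 encodes the scaffold that joins MST to LATS kinases. Sav1 (chromosome 12, 69965012 to 69987002, minus strand) had 2.03 and 2.41 FPKM in EGCs, 7.72 and 6.10 FPKM in PGCLCs, 7.11 and 6.58 FPKM in iPGCs, and 1.58 and 0.272 FPKM in PGCs. Both stem cell derived groups lay above EGCs, and EGCs above PGCs, with no overlap. The differences from PGCs were 0.76 in EGCs (limma adjusted p = 0.530), 1.68 in PGCLCs (0.117) and 1.65 in iPGCs (0.125), with SE 0.61. Without PGC library 2, the lowest, they were 0.15, 1.08 and 1.04. EGCs differed from PGCLCs by -0.91 (adjusted p = 0.391) and from iPGCs by -0.88 (adjusted p = 0.514), so none of these passed. In GENCODE, Sav1 shares 1336 exon bases with Atl1 on the other strand, whose level was 0.121 to 2.12 FPKM. Use of strand is not given in the sources used here, so reads of these bases cannot be told apart.

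**Figure D2:**
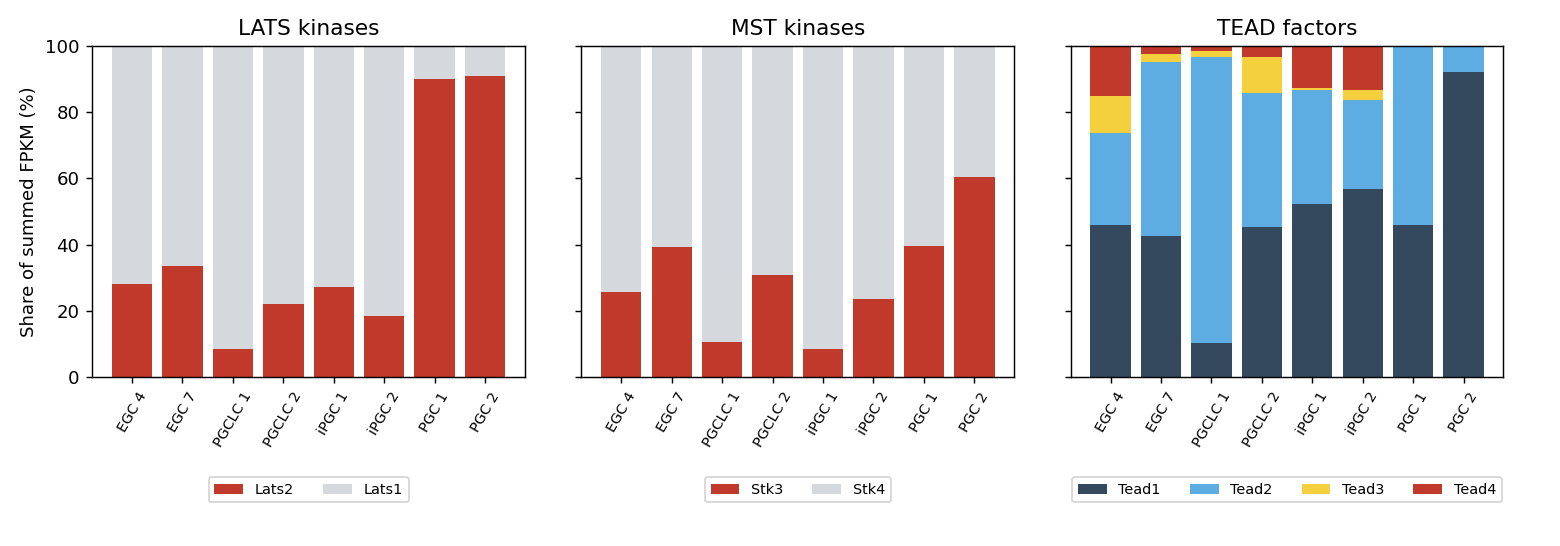
Stacked bars give the share of summed FPKM (%, y axis) of each gene within its family in each of the 8 libraries (x axis): Lats2 and Lats1, Stk3 and Stk4, and the Tead genes with Tead3 added. Lats2 holds 8.56 to 33.4% of the LATS sum in EGCs, PGCLCs and iPGCs and 89.9 and 90.9% in PGCs, and Tead4 has no share in PGCs.

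YAP and TAZ, encoded by Yap1 and Wwtr1, are the coactivators that LATS kinases restrain. Yap1 (chromosome 9, 7931999 to 8004596, minus strand) had 34.2 and 20.97 FPKM in EGCs, 29.5 and 36.8 FPKM in PGCLCs, 24.1 and 27.8 FPKM in iPGCs, and 20.6 and 18.6 FPKM in PGCs. The PGC libraries were the lowest 2, yet the whole range over the 8 libraries was 1.98 times. Against PGCs, relative to all tested genes, the difference was 0.37 in EGCs (95% interval -0.66 to 1.40; limma adjusted p = 0.669), 0.29 in PGCLCs (-0.74 to 1.32; 0.427) and -0.08 in iPGCs (-1.11 to 0.95; 0.677). The sign in iPGCs was not stable: it was positive with quantile normalization (0.28) and with a pseudocount of 5 (0.12).

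Wwtr1 (chromosome 3, 57455649 to 57575910, minus strand) had 3.31 and 2.55 FPKM in EGCs, 0.505 and 3.15 FPKM in PGCLCs, 4.69 and 3.73 FPKM in iPGCs, and 5.38 and 0.682 FPKM in PGCs. The PGC libraries spanned nearly the whole range, so no group lay outside them (limma adjusted p = 0.910 for EGCs, 0.830 for PGCLCs and 0.687 for iPGCs). Per length, Yap1 was the larger of the pair in every library. Wwtr1 made up 8.84 and 10.8% of their sum in EGCs, 1.68 and 7.88% in PGCLCs, 16.3 and 11.8% in iPGCs, and 20.7 and 3.54% in PGCs.

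The TEAD factors bring YAP and TAZ to DNA. Tead1 (chromosome 7, 112679318 to 112906807, plus strand) had 20.2 and 45.4 FPKM in EGCs, 25.1 and 47.9 FPKM in PGCLCs, 34.96 and 29.4 FPKM in iPGCs, and 49.2 and 30.8 FPKM in PGCs. All groups overlapped PGCs. Tead2 (chromosome 7, 45215753 to 45233644, plus strand), an early embryonic TEAD gene, had 12.2 and 55.7 FPKM in EGCs, 208 and 42.8 FPKM in PGCLCs, 23.2 and 13.8 FPKM in iPGCs, and 57.3 and 2.58 FPKM in PGCs. Its libraries differed within EGCs, PGCLCs and PGCs by more than the group means of EGCs and PGCs did, and its adjusted p against PGCs was 0.298 or more.

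Tead4 (chromosome 6, 128224288 to 128300823, minus strand), the TEAD gene needed for trophectoderm, had 6.59 and 2.60 FPKM in EGCs, 3.76 and 3.44 FPKM in PGCLCs, and 8.49 and 6.90 FPKM in iPGCs. It was listed at 0 in both PGC libraries. A listed 0 can be a failed estimate, so no fold is given. All 6 other libraries lay above PGCs (limma adjusted p = 0.108 in EGCs, 0.109 in PGCLCs and 0.0636 in iPGCs). With a pseudocount of 0.1 the adjusted p was 0.0452, 0.0403 and 0.0265, so the choice of pseudocount decides this call.

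Tead3, the remaining TEAD gene and not among the 10, had 5.00 and 2.71 FPKM in EGCs, 4.08 and 11.6 FPKM in PGCLCs, 0.399 and 1.61 FPKM in iPGCs, and 0.381 and 0 FPKM in PGCs. Summed over all 4 TEAD genes, RNA came to 44.0 and 106 FPKM in EGCs, 241 and 106 FPKM in PGCLCs, 67.1 and 51.7 FPKM in iPGCs, and 107 and 33.4 FPKM in PGCs. Tead1 and Tead2 together made up most of this sum in each library. Tead4 held 15.0 and 2.45% of it in EGCs, 1.56 and 3.25% in PGCLCs, 12.7 and 13.3% in iPGCs, and none in PGCs, where it was listed at 0.

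Counted over the 10 genes against PGCs, the 1 gene under the threshold in each comparison was Lats2. Lats2 was selected on these libraries, so nothing is read from that count. Over all tested genes, 0.74% were called in either direction in EGCs against PGCs, 1.06% in PGCLCs and 0.794% in iPGCs, and 0.217%, 0.117% and 0.0451% were called lower and 0.523%, 0.938% and 0.749% higher. Of the 9 other genes, 0 passed in each. At an unadjusted p under 0.05 there were 2 in EGCs (Stk3 and Tead4), 2 in PGCLCs (Sav1 and Tead4) and 3 in iPGCs (Sav1, Stk3 and Tead4). Over all genes, 17.2%, 19.5% and 19.5% had such a p.

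Libraries did not overlap PGCs, on the higher side, for 3 of the 10 genes in EGCs, PGCLCs and iPGCs alike (Sav1, Tead4 and Yap1), against 24.1%, 33.5% and 39.4% of all tested genes. On the lower side there were 3 in EGCs (Lats2, Stk3 and Stk4) and 2 in each of PGCLCs and iPGCs (Lats2 and Stk3), against 20%, 11.8% and 13.1% of all tested genes. The median relative difference of the 10 genes was 0.04 in EGCs, 0.07 in PGCLCs and -0.16 in iPGCs, where all tested genes have 0 by construction. The 10 genes went both ways, so this median does not describe them as a group.

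**Figure D3:**
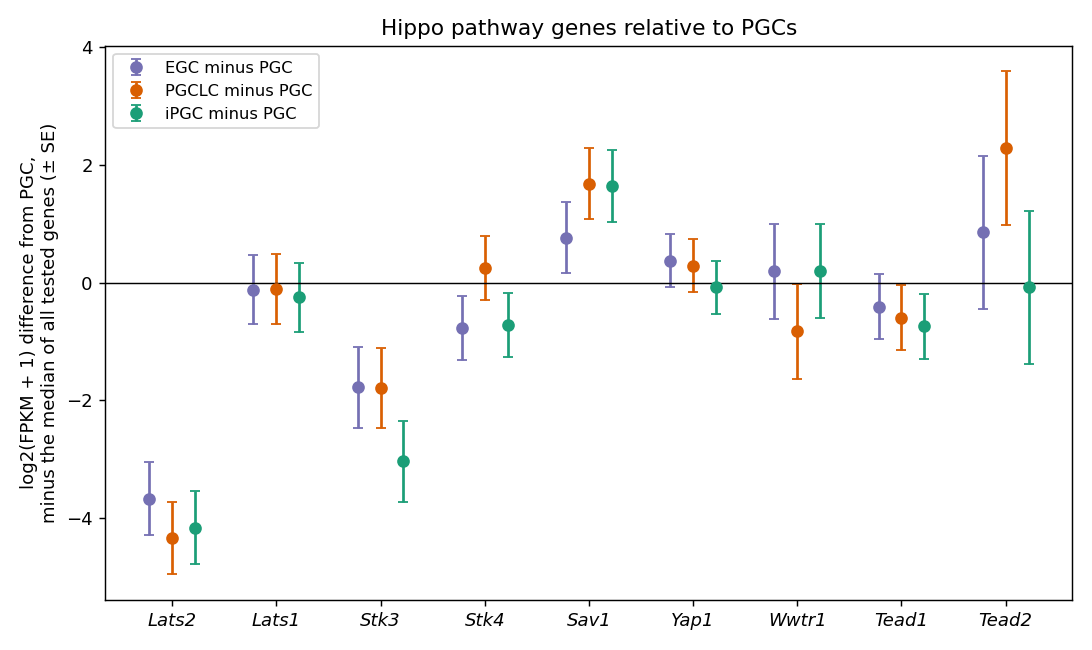
Points give the log2(FPKM + 1) difference from PGCs, minus the median of all tested genes, for 9 genes (x axis) in EGCs, PGCLCs and iPGCs, with bars for the SE (n = 2 against 2). Lats2 lies at -3.67 to -4.34 and was chosen for its difference in iPGCs. Stk3 lies below 0 and Sav1 above it without passing the test. Tead4 is left out because it was listed at 0 in PGCs.

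Among the groups other than PGCs, no gene of the 10 passed. PGCLCs against iPGCs had 0 at an unadjusted p under 0.05, with 4 genes higher without overlap (Stk3, Stk4, Tead2 and Yap1) and 2 lower (Tead4 and Wwtr1). Of all tested genes 0.018% were called, 4.68% had an unadjusted p under 0.05, and 17.3% and 19.6% did not overlap, higher and lower. EGCs against iPGCs also had 0 at an unadjusted p under 0.05, with Stk3 higher without overlap and 4 genes lower (Lats1, Sav1, Tead4 and Wwtr1). The background there was 0.117% called, 10.3% by unadjusted p, and 10.8% and 39.5% without overlap. EGCs against PGCLCs had 1 at an unadjusted p under 0.05 (Stk4), and 3 lower without overlap (Lats1, Sav1 and Stk4). There 0.0993% were called, 13.9% by unadjusted p, and 11.8% and 34.2% did not overlap, higher and lower.

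The other genes of the pathway were followed through 5 lists of 70 genes, of which 58 were tested. Ajuba, Amotl2 and Ptpn14 are in more than 1 list and are counted in each. In PGCLCs and in iPGCs 1 of the 58 passed (1.72%), where 1.06% and 0.794% of all tested genes did, so the share is near the background. The gene was Wtip, a LIM protein of the Ajuba family that binds and inhibits LATS kinases. Wtip had 3.35 and 5.24 FPKM in EGCs, 16.0 and 16.3 FPKM in PGCLCs, 8.77 and 10.3 FPKM in iPGCs, and 0.178 and 0 FPKM in PGCs. It was thus near 0 in PGCs and passed the filter on low values only through the other libraries, and a listed 0 can be a failed estimate. With that limit, Wtip differed from PGCs by 3.54 ± 0.56 in PGCLCs (limma adjusted p = 0.0273) and by 2.81 ± 0.56 in iPGCs (adjusted p = 0.0450). Its difference of 2.20 in EGCs did not pass (adjusted p = 0.100). Leaving out 1 library at a time, its call remained in 4 of 8 fits for PGCLCs (lost without either iPGC or either PGCLC library; adjusted p 0.0307 to 0.204) and in 0 of 8 for iPGCs (0.0508 to 0.367). Over all alternatives its adjusted p ran from 0.0166 to 0.239 in PGCLCs and from 0.0265 to 0.367 in iPGCs.

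Among 17 tested upstream regulators, 0 passed in limma in any comparison with PGCs. At an unadjusted p under 0.05 there were 5 in EGCs, 4 in PGCLCs and 3 in iPGCs, and the median differences were -0.82, -0.34 and -0.34. Of all tested genes, 17.2%, 19.5% and 19.5% had such a p. Their most abundant members were the NDR kinase gene Stk38, Nf2 and the LIM gene Pdlim7. Nf2, which encodes Merlin, the membrane protein that recruits LATS, had 11.8 and 13.2 FPKM in EGCs, 33.3 and 28.9 FPKM in PGCLCs, 14.6 and 14.5 FPKM in iPGCs, and 37.9 and 43.7 FPKM in PGCs. Both PGC libraries were the highest, but no difference passed (limma adjusted p = 0.111, 0.667 and 0.137 in EGCs, PGCLCs and iPGCs).

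Of 11 tested inhibitors of the kinases, Wtip passed in PGCLCs and iPGCs and 10 did not, and the list medians were -0.33 in EGCs, -0.70 in PGCLCs and -0.27 in iPGCs. The most abundant were Slmap, Fgfr1op2 and Sike1, parts of the STRIPAK phosphatase complex that acts on MST kinases. Sike1 had 15.8 and 11.7 FPKM in EGCs, 30.6 and 7.37 FPKM in PGCLCs, 5.95 and 21.8 FPKM in iPGCs, and 3.77 and 2.69 FPKM in PGCs (limma adjusted p 0.229 to 0.320 against PGCs).

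Proteins that bind YAP and TAZ, 15 tested, included the 14-3-3 genes that hold phosphorylated YAP in the cytoplasm. None passed in limma, and 2, 6 and 3 had an unadjusted p under 0.05 in EGCs, PGCLCs and iPGCs, where 17.2%, 19.5% and 19.5% of all tested genes did. The most abundant were Ywhae, Ywhag and Ywhaz. Ywhae had 349 and 353 FPKM in EGCs, 676 and 425 FPKM in PGCLCs, 533 and 480 FPKM in iPGCs, and 271 and 379 FPKM in PGCs (limma adjusted p = 0.892, 0.298 and 0.348 in EGCs, PGCLCs and iPGCs). Ywhaz had 97.0 and 69.2 FPKM in EGCs, 85.7 and 78.8 FPKM in PGCLCs, 88.4 and 82.2 FPKM in iPGCs, and 115 and 88.0 FPKM in PGCs (adjusted p = 0.743, 0.720 and 0.768). Relative to all tested genes, Ywhaz differed from PGCs by -0.36, -0.72 and -0.70, so these 3 most abundant genes showed no common direction. For the list of 15, the median differences were 0.27 in EGCs, 0.57 in PGCLCs and 0.57 in iPGCs. Above PGCs without overlap lay 5, 10 and 11 of the 15, against 24.1%, 33.5% and 39.4% of all tested genes. On the lower side there were 3, 2 and 1, against 20%, 11.8% and 13.1%. Ywhag had 72.0 and 78.7 FPKM in EGCs, 116 and 91.6 FPKM in PGCLCs, 143 and 119 FPKM in iPGCs, and 30.9 and 53.1 FPKM in PGCs (limma adjusted p = 0.325, 0.134 and 0.0954). Amot, an angiomotin that binds YAP, was named after its values were seen. It had 0.244 and 0.844 FPKM in EGCs, 0.519 and 1.58 FPKM in PGCLCs, 10.6 and 5.38 FPKM in iPGCs, and 13.6 and 9.71 FPKM in PGCs (adjusted p = 0.0715, 0.0809 and 0.681). Named later as well, the other angiomotin genes Amotl1 and Amotl2 differed from PGCs the other way. Relative to all tested genes, Amotl1 differed by 0.42, 0.57 and 0.55 in EGCs, PGCLCs and iPGCs, and Amotl2 by 3.29, 0.48 and 1.28. None of these passed in limma.

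Known YAP and TEAD target genes numbered 23, of which 16 were tested. In limma 0 passed against PGCs, and 3, 2 and 4 had an unadjusted p under 0.05 in EGCs, PGCLCs and iPGCs, where 17.2%, 19.5% and 19.5% of all tested genes did. Their median relative difference was 0.44, 0.22 and 0.98, and 4, 4 and 10 of the 16 lay above PGCs without overlap, against 24.1%, 33.5% and 39.4% of all tested genes. Below PGCs without overlap lay 1, 0 and 0 of the 16, against 20%, 11.8% and 13.1% of all tested genes. The filter on low values bears on these figures, and its part was not tested. Of genes named after their values were seen, Ctgf, F3, Nuak2 and Fjx1 passed it only through libraries other than PGCs. Myof (6.31 and 0 FPKM in PGCs, at most 0.522 FPKM elsewhere) and Ccdc80, also highest in PGC library 1, did not pass it. Crim1, highest in PGCLCs (1.93 and 0.618 FPKM), did not pass it either. The most abundant tested targets were Birc5, Asap1 and Gadd45a. Birc5 overlapped PGCs in all 3 groups. Asap1 lay above PGCs without overlap in iPGCs (relative difference 1.67, adjusted p = 0.334) and overlapped them in EGCs and PGCLCs. Gadd45a lay below PGCs without overlap in EGCs (-2.09, adjusted p = 0.145) and overlapped them in PGCLCs and iPGCs. Ctgf, the connective tissue growth factor gene most often used as a YAP readout and named after its values were seen, had 1.57 and 6.39 FPKM in EGCs, 3.88 and 6.82 FPKM in PGCLCs, and 10.1 and 13.5 FPKM in iPGCs. It had 0.0256 FPKM in PGC library 1 and was near 0 in PGC library 2 (limma adjusted p = 0.182, 0.0961 and 0.0577). Other targets, also named later, did not all follow Ctgf. Cyr61 had 0.0688 and 3.09 FPKM in PGCs and overlapped them in EGCs and PGCLCs (limma adjusted p = 0.822 and 0.949). In iPGCs Cyr61 had 8.13 and 10.4 FPKM (adjusted p = 0.235). Rbms3 had 19.1 and 0 FPKM in PGCs and was listed at 0 in EGCs. Axl had 3.37 and 0 FPKM in PGCs and overlapped them in each group.

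**Figure D4:**
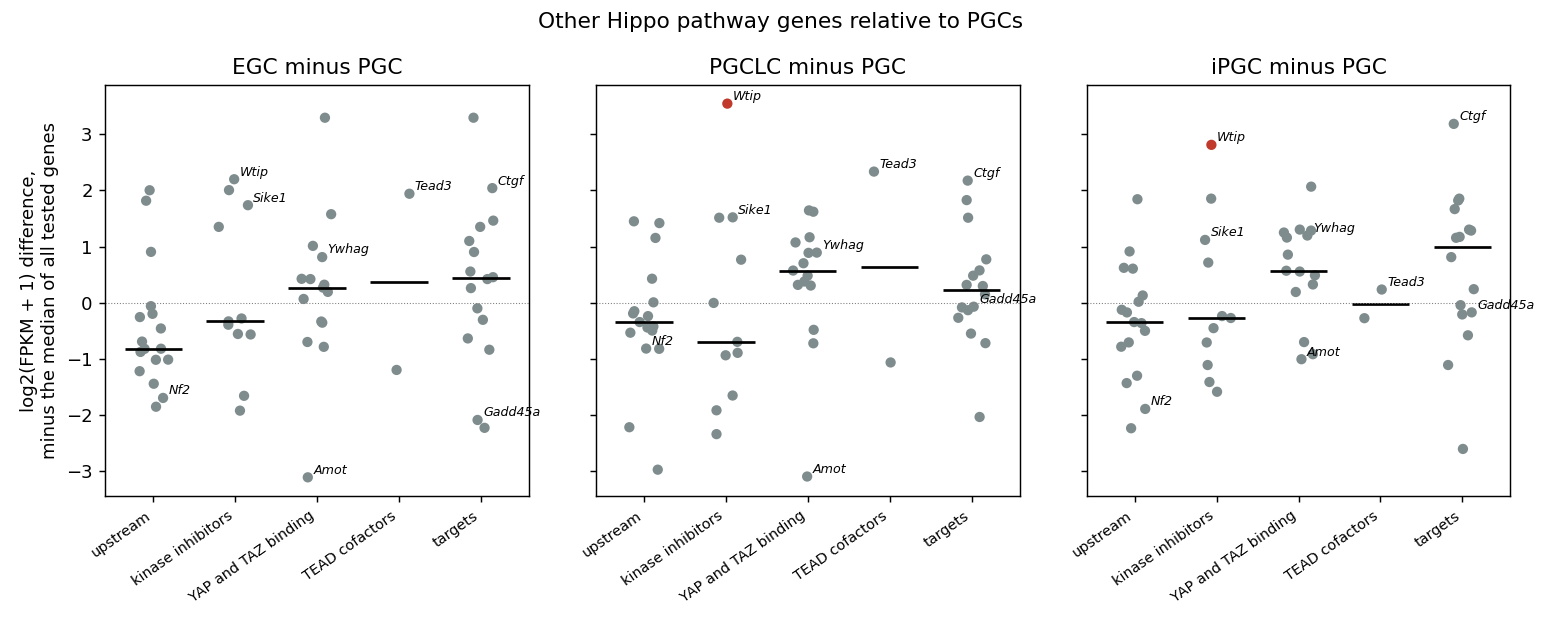
Each point is 1 tested gene of 5 further Hippo lists (x axis), placed by its log2(FPKM + 1) difference from PGCs minus the median of all tested genes, in EGCs, PGCLCs and iPGCs, and black lines are list medians. Ajuba, Amotl2 and Ptpn14 are in more than 1 list and are drawn in each. Red marks the genes called in limma, which is Wtip in PGCLCs (3.54) and iPGCs (2.81), and the median of the targets is 0.98 in iPGCs.

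The genes whose log2(FPKM + 1) pattern over the 8 libraries was most like that of Lats2 were found by Pearson r, given as a description. They were Whsc1l1, a histone methyltransferase gene (r = 0.99), the calcium channel gene Cacna1d (0.98) and the neutrophil calcium-binding protein gene S100a9 (0.98). The transcriptional coactivator gene Eya1 (0.98) and the RNA-binding protein gene Rbm24 (0.98) completed the list. Whsc1l1 had 7.58 to 10.7 FPKM in the 6 other libraries, and 27.3 and 24.4 FPKM in PGCs. S100a9 was listed at 0 in the 6 other libraries, and had 15.6 and 8.77 FPKM in PGCs. Cacna1d had at most 0.0443 FPKM in the 6 other libraries, and 2.12 and 2.08 FPKM in PGCs. Eya1 had at most 0.403 FPKM there and 2.96 and 3.11 FPKM in PGCs, and Rbm24 at most 0.268 FPKM and 1.76 and 1.74 FPKM. All of these but Whsc1l1 passed the filter on low values only through the PGC libraries, so their r with Lats2 was largely fixed in advance. Within the set, r with Lats2 ran from -0.91 for Tead4 and -0.78 for Sav1 to 0.39 for Tead1 and 0.72 for Stk3. All these values share the same 8 libraries, and Lats2 itself separates PGCs from the other 6.

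Summed markers of some other cell types were higher than in the cultured libraries, in PGC library 1 alone or in both PGC libraries. Of 8 germ cell markers, 6 to 8 were at 1 FPKM or more in each library, and they summed to 145 and 190 FPKM in EGCs, 1213 and 554 FPKM in PGCLCs, 590 and 506 FPKM in iPGCs, and 521 and 852 FPKM in PGCs. Of 8 myeloid and platelet markers, 0 reached 1 FPKM in EGCs, PGCLCs or iPGCs (sums of 0.544 FPKM or less), whereas 5 and 2 did in PGC libraries 1 and 2 (132 and 14.5 FPKM). Yolk sac endoderm markers summed to 8.65 to 9.32 FPKM in EGCs, 0.413 to 13.5 FPKM in PGCLCs, 9.17 to 12.8 FPKM in iPGCs, and 196 and 2.37 FPKM in PGC libraries 1 and 2, where 7 and 1 of 8 reached 1 FPKM. Mesoderm markers (7 in the table) summed to at most 16.6 FPKM in the cultured libraries, against 56.6 and 23.9 FPKM in PGCs, and fibroblast markers to at most 3.70 FPKM, against 18.0 and 1.64 FPKM in PGCs. Single markers differed in which PGC library held them. The yolk sac gene Afp (82.6 FPKM), the platelet gene Pf4 (27.2 FPKM) and the mesoderm gene T (37.9 FPKM) were present in PGC library 1 and listed at 0 in PGC library 2. Others were present in both PGC libraries, as Lats2 was: S100a9 at 15.6 and 8.77 FPKM, the Fc receptor chain gene Fcer1g at 21.4 and 4.85 FPKM, and the mesoderm transcription factor genes Tbx4 at 7.11 and 13.4 FPKM and Msx2 at 7.87 and 8.23 FPKM. Fcer1g and S100a9 were listed at 0 in the 6 other libraries, where Tbx4 reached at most 1.54 FPKM and Msx2 at most 4.21 FPKM. Some members of the same myeloid and mesoderm lists did not follow Lats2. Tyrobp and Mesp1 had 0 FPKM in every library, and S100a8 had 0.732 and 0 FPKM in PGCs. Mixl1 had 0 FPKM in each PGC library, against 4.82 FPKM in PGCLC library 1 and 2.55 FPKM in iPGC library 1. Hand1 was highest in PGCLC library 2 (10.5 FPKM), against 3.75 and 0.0518 FPKM in PGCs. The part of any of these markers in the Lats2 difference was not tested.

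By their sums, trophoblast markers, gut endoderm markers and endothelial markers were not highest in PGCs. Their highest sums were 48.1 FPKM (in iPGCs), 219 FPKM (in iPGCs) and 101 FPKM (in PGCLCs), against 2.84 to 30.0, 52.9 to 54.6 and 21.3 to 56.5 FPKM in PGCs. Single genes made up most of some sums. In PGCs Epcam had 51.0 and 52.8 FPKM and Pecam1 18.9 and 55.9 FPKM, and Pecam1 had 88.4 FPKM in PGCLC library 1. Some low members went the other way. Cdh5 had 1.18 and 0.508 FPKM in PGCs and at most 0.342 FPKM elsewhere. Shh had 0.461 and 1.02 FPKM in PGCs and was listed at 0 elsewhere. Read totals are not in the FPKM table. The lowest values of single-transcript genes gave approximate depths of 2.95 to 18.4 M reads, with the lowest in iPGC library 1, and 7991 to 10039 genes reached 1 FPKM in a library.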

How the data were processed

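The authors deposited 1 FPKM value per gene and library; total RNA had been amplified with an Ovation kit and sequenced as single-end reads, 8 libraries together in 2 lanes, per the labels' protocols. TopHat2, Cufflinks and GRCm38 (mm10) are named per the submitters' processing notes; their versions, the annotation and strand handling are not stated in the sources used here. Cufflinks divides reads shared by overlapping genes, so such levels are estimates. Of 20171 entries, 18 repeats of 15 identifiers were dropped, leaving 20153, of which 19747 were in GENCODE M21 (GRCm38), and 27 symbols turned into dates were restored. The 11083 genes that reached 1 FPKM in 2 or more libraries entered limma 3.58.1 (R 4.3.3; log2 of FPKM + 1, two-sided tests, mean trend, robust option). The spread was estimated jointly from the 8 libraries (4 residual degrees of freedom), with Benjamini-Hochberg adjustment over all tested genes within each of 6 comparisons and a threshold of 0.05. The step was also run on simulated data with independent normal noise. Those lacked the listed zeros and the library differences of the real data, so that run cannot vouch for the calls here. Adding 1 FPKM understates differences of low genes. Intervals are unadjusted 95% intervals.

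The 10 members and all gene lists were chosen with earlier results of these data known. Besides the members, pathway genes are named where they passed in any comparison or were among the 3 of highest mean FPKM in a list, and the 5 genes most like Lats2 by Pearson r (predicted genes, small RNAs and pseudogenes skipped); others are named as chosen later. Approximate depth is the inverse of the median of the 40 lowest FPKM values, per kilobase, of single-transcript genes over 1 kb. Promoter windows are from RefSeq. The alternatives tried were pseudocounts of 0.1 and 5, a filter at 5 FPKM and none, quantile normalization, equal library medians, a fit of the compared groups alone, a replicate block, 6 libraries without the block (added after seeing the data, as was applying the settings to the wider pathway), and each library left out in turn.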

Additional observations from a re-analysis of the deposited data

How the results depend on the processing

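The relative difference of Lats2 from PGCs is a description, and its sign in iPGCs is fixed by the choice of Lats2. Over the alternatives, this difference ran from -4.52 to -2.30 in EGCs, -5.75 to -2.58 in PGCLCs and -5.27 to -2.52 in iPGCs. Counts of called genes moved with many settings; the causes were not tested.

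The count of called genes among the 10, which is Lats2 and describes the gene the set was chosen on, became 0 in place of 1 in each comparison with PGCs without the filter and with only the 2 groups fitted, in EGCs and iPGCs with the filter at 5 FPKM, and in PGCLCs and iPGCs with the replicate block and with 6 libraries and no block. Leaving out 1 library gave 0 to 0 in EGCs, 0 to 1 in PGCLCs and 0 to 1 in iPGCs. With a pseudocount of 0.1 the 1 called gene was Tead4, not Lats2.

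The 82 genes called in EGCs against PGCs became 31 with a pseudocount of 5, 14 without the filter, 8 with only the 2 groups, and 1 to 96 with 1 library left out. The 117 in PGCLCs became 183 with a pseudocount of 0.1, 32 with 5, 0 without the filter, 36 with quantile normalization, 54 with equal medians, 0 with only the 2 groups, and 0 to 279 with 1 library left out. The 88 in iPGCs became 166, 34, 18, 45, 46 and 0 under these settings in the same order, and 4 to 208. The 2 in PGCLCs against iPGCs became 1 with a pseudocount of 5 or quantile normalization, 0 without the filter, 5 with only the 2 groups, and 0 to 5. The 13 in EGCs against iPGCs became 8 and the 11 in EGCs against PGCLCs 7 without the filter, and 0 to 18 and 0 to 41 with 1 library left out.

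The 1 called gene of the wider pathway (Wtip) in PGCLCs and iPGCs became 2 with a pseudocount of 0.1 (Ctgf added), and 0 with a pseudocount of 5, without the filter, with quantile normalization, with only the 2 groups and, in iPGCs, with equal medians and with 6 libraries and no block. Leaving out 1 library gave 0 to 3 in PGCLCs, 0 to 2 in iPGCs and 0 to 1 in EGCs, where the main count was 0; the 3 and the 1 came without PGC library 2 (Rassf1 and Rbms3 beside Wtip, and Rbms3).

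Signs turned for differences near 0. With 1 library left out, Yap1 in iPGCs ran from -0.25 to 0.038, Lats1 in PGCLCs from -0.47 to 0.32 and Lats1 in EGCs from -0.46 to 0.12. Yap1 in iPGCs was at 0.12 with a pseudocount of 5, 0.15 without the filter, 0.28 with quantile normalization and 0.038 without iPGC library 1. Lats1 in PGCLCs was at 0.16 without the filter, 0.14 without PGC library 1 and 0.32 without PGCLC library 1, and in EGCs at 0.12 without PGC library 1.

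Deviations of same-numbered libraries correlated at 0.06 between PGCLCs and iPGCs, -0.03 between PGCLCs and PGCs and 0.01 between iPGCs and PGCs. These values cannot settle whether same-numbered libraries were prepared together. With the numbers as a replicate block in 6 libraries, calls over all genes were 6 in PGCLCs against PGCs, 10 in iPGCs against PGCs and 0 in PGCLCs against iPGCs, and 0 for the 10 members and the wider pathway, against 44, 40 and 5 calls over all genes in the same 6 libraries without the block. EGC lines carry other numbers, so they have no block fit.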
